A study of Mus musculus with 12 samples.

Results

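Gene expression in ATF2 mutant melanocytes was compared with that in wild type (WT) melanocytes after both had been kept at 1% O2 for 12 h. The comparison rests on 4 of the 12 arrays of the study, 2 of mutant cultures that had received 4-hydroxytamoxifen (4-OHT, the active form of tamoxifen) and 2 of WT cultures, hybridised to Illumina Mouse-6 BeadChips. Of the 46628 probes on the array, 13701 were used. Each had a detection p (its chance of arising from background beads) below 0.01 on 1 or more of the arrays compared. The 74 control and reporter probes and 121 probes of named genes on chromosomes X and Y were left out. At this threshold the highest detection p that let a probe in was 0.00998 and the lowest that kept one out was 0.0106. A gene name could be given to 4139 of these probes, which represent 3692 genes, each described by its brightest probe. The other 9562 have no name and no known chromosome here, so they were counted but not interpreted.

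All cultures were primary melanocytes from the skin of 1 day old pups of the mixed strain FVB/129/OlaHsd/C57Bl/6. By the methods, all carried a Cre recombinase fused to the estrogen receptor and driven by the tyrosinase promoter, an Ink4a-/- background and a doxycycline-induced NRAS with the change Q61K. The mutant cultures (genotype ATF2-/- in the labels) carried Atf2 alleles whose exons 8 and 9 are flanked by loxP sites. 4-OHT switches on the Cre, which then removes these exons and with them the DNA binding domain. The labels give doxycycline for both groups but 4-OHT for the mutant only, so by the labels the mutation and the drug cannot be told apart in this comparison. The methods give 10 µM 4-OHT for 8 h and 2 µg/ml doxycycline for 24 h for primary melanocytes, without excepting WT. Methods and labels thus differ on whether WT received 4-OHT, and the labels were followed here. The tyrosinase promoter is active in pigment cells, so other cells in a culture should keep the intact exons. The methods speak of biological and technical replicates without saying which arrays are which, so the p-values cover no more than the variation among these arrays, which may be technical.

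ATF2 is a leucine zipper transcription factor that is activated by the stress kinases JNK and p38 and binds DNA as a pair with itself or with partners such as JUN. Its best known site is the cyclic AMP response element, TGACGTCA. In melanocytes low oxygen stabilises the HIF factors, which raise genes of glycolysis and oxygen sensing. The identity of a melanocyte rests on MITF, SOX10 and the enzymes of melanin synthesis.

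The arrays differed in ways that the labels do not describe. The mutant replicates correlated at 0.965 over the probes used and the WT replicates at 0.988, against 0.917 to 0.935 between mutant and WT arrays. Mutant replicate 2 correlated with the normoxia arrays numbered 2 at 0.991 (mutant with 4-OHT) and 0.979 (mutant without it), but at only 0.905 and 0.91 with the mutant without 4-OHT in hypoxia. Its correlations with the WT arrays compared were 0.935 and 0.924, so it lay no closer to the group that differs from it by 4-OHT alone than to WT. An Xist probe (the RNA of the inactive X chromosome) was above background on the 8 mutant arrays and on none of the WT arrays, and a probe of the Y-linked gene Eif2s3y on the 4 WT arrays alone, so the sex of the pups and the genotype cannot be told apart. The probe of Atf2 was above background on 0 of the 12 arrays, at 27.9 to 49.6 units, and gives no check of the deletion. The Nras probe lay at 57.9 and 73.1 units on the mutant and at 52.4 and 77.1 on the WT arrays.

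Pigment cell genes were bright in both groups. Of 13 melanin and melanosome genes with a named probe, 9 were above background on each mutant array and 9 or 10 on the WT arrays, and their summed intensity was 37535 and 47099 units in the mutant and 33474 and 41612 in WT. Dct, the dopachrome tautomerase of melanin synthesis, was among the brightest genes, at 11500 and 16000 units on the mutant and 11400 and 14500 on the WT arrays (log2 fold change -0.09 ± 0.17, SE, adjusted p = 0.803 from limma). Gpnmb, a melanosome glycoprotein, lay at 11000 and 13800 units in the mutant and at 9000 and 11800 in WT. None of the 10 melanin and melanosome genes that could be tested passed the threshold, beside 6.83% higher and 4.88% lower over all named genes. At that share few calls among 10 genes would be made, so their absence is a description. The median log2 fold change of the 10 was 0.14, beside -0.06 over all genes. The sums are mostly Dct, Gpnmb and Cd63, and on 1 of the 4 arrays or more these probes came within 0.15 (Dct), 0.35 (Gpnmb) and 0.26 (Cd63) of the brightest normalized log2 value, so a difference between the groups could be understated there, which was not tested. A second, dimmer probe of Gpnmb did pass, with a log2 fold change of 1.62 (adjusted p = 0.000577 from limma), so the probes of this gene disagree.

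At an adjusted p under 0.05, 991 probes were higher in the mutant (7.23% of those tested) and 864 were lower (6.31%). Of these, 643 were higher and 310 lower by at least 2-fold. Among named genes 252 were higher (6.83%) and 180 lower (4.88%), and 155 and 55 of them changed at least 2-fold. The probes of 118 of the higher genes were not above background on either WT array, and those of 48 of the lower genes on neither mutant array, so these entered the test only through the group in which they were bright. Fewer probes passed in both directions when any 1 of the 4 arrays was left out. Such a fit holds a single array in 1 group and is less precise. It therefore cannot tell whether any 1 array drives the calls. The arrays numbered 1 share a slide and so do those numbered 2. Within the slides 0 of the 1855 called probes changed in opposite directions, but the calls use the same arrays, so this was close to given.

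**Figure D1:**
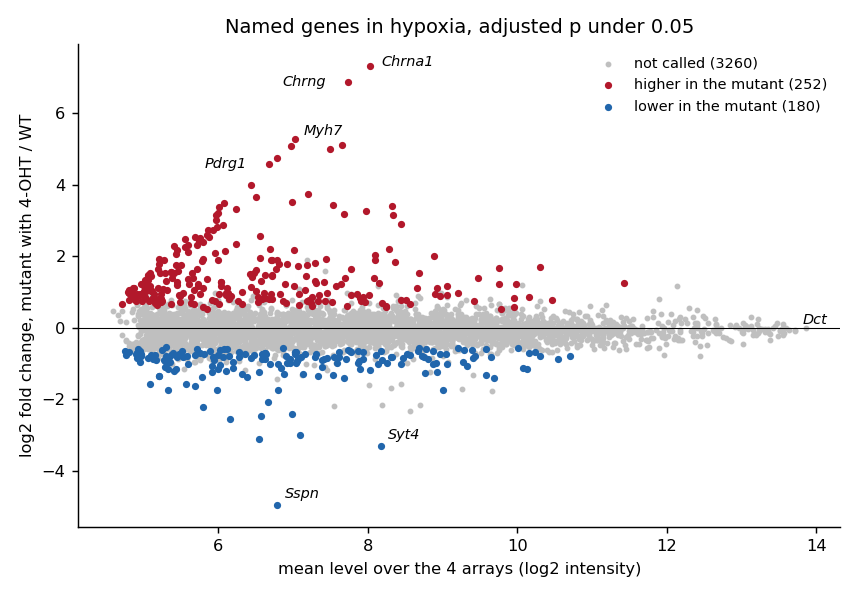
Each point is 1 of the 3692 named genes, placed by its mean level over the 4 arrays (log2 intensity, horizontal axis) and its log2 fold change between the mutant with 4-OHT and WT in hypoxia (vertical axis). The 252 genes higher in the mutant reach 7.33 and the 180 lower genes reach -4.95, while Dct lies near 0 at the bright end.

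The largest rises were those of genes of skeletal muscle. Chrna1, which encodes the acetylcholine-binding subunit of the receptor at the neuromuscular junction, lay at 2590 and 4870 units on the mutant arrays and at 26.6 and 31.1 on the WT arrays, where it was not above background. Chrng, the gamma subunit that the receptor holds before birth, lay at 2540 and 2360 units in the mutant and at 21.7 and 29.8 in WT. The groups do not overlap for either subunit, which the choice of leading genes required. Each WT value is at the level of the background. Over all 13701 probes, 2932 were higher and 4332 lower in the mutant without overlap. The log2 fold change of Chrna1 was 7.33 ± 0.21 (SE, n = 2 arrays each, adjusted p = 4.26e-09 from limma), which is at least 126-fold. That of Chrng was 6.87 ± 0.18 (adjusted p = 4.24e-09 from limma), at least 87.7-fold. Such a bound sets the mutant mean against the lowest signal that is still above background on the WT arrays. A second probe of Chrna1 rose as well, but by 1.74 (adjusted p = 0.00659 from limma).

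The promoters of both subunits hold the sequence CAGCTG, a form of the E-box (CANNTG) that myogenic factors such as MyoD bind, 2 times each. The windows below come from RefSeq (build GRCm38.p6) and run from 250 bases before to 50 bases after the start of the gene. CAGCTG is in capitals in the first 3, and the ATF2-type site TGACGTCA in the last. They are shown as examples: 5 of the 11 leading rises with a window hold CAGCTG, the other two being Mest and Rab6b, with a single copy each in 1 window. In Chrna1 (chr2:73580289-73580588, minus strand) CAGCTG begins at -92 and -44 from the start, and in Chrng (chr1:87205561-87205860, plus strand) at -155 and -132. In Acta2 (chr19:34255324-34255623, minus strand) it begins at -182. In Neurl1a (chr19:47178570-47178869, plus strand) TGACGTCA begins at -102.
Chrna1: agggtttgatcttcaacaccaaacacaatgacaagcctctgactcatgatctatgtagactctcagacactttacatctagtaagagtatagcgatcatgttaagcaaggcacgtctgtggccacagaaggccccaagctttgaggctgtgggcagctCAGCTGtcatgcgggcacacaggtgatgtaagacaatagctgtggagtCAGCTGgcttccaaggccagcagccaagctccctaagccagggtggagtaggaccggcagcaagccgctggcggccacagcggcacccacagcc
Chrng: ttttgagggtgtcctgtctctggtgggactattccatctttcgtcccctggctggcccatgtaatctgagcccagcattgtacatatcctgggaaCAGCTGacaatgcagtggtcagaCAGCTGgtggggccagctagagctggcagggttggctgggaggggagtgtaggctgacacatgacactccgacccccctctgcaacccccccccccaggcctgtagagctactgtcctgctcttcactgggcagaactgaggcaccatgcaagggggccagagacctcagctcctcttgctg
Acta2: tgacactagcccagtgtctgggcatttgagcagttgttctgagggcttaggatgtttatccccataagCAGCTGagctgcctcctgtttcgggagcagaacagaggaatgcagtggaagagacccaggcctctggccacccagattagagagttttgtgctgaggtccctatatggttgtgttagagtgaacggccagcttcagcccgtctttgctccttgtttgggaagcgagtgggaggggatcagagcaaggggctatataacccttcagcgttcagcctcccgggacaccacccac
Neurl1a: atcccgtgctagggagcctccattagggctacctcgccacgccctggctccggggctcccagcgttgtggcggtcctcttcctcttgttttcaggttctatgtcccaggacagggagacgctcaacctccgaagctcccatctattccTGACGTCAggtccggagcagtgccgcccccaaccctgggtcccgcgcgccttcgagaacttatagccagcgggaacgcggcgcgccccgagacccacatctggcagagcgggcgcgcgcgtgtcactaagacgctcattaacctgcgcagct

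These motifs were then counted in all windows, on both strands, which for CAGCTG and TGACGTCA read the same. Of 2983 tested genes with at least 1 window, 17.7% held CAGCTG. It was present in 57 of the 193 genes higher in the mutant (29.5%), in 24 of the 138 lower genes (17.4%) and in 447 of the 2652 that were not called (16.9%). Among all 27025 RefSeq genes with a window the share was 18.3%. The wider motif CANNTG, which includes CAGCTG, was in 73.1% of the higher and 65.9% of the lower genes and in 65.2% of those not called. TGACGTCA was in 5 of the 193 higher genes (2.59%), in 3 of the 138 lower genes (2.17%) and in 4.19% of those not called. The AP-1 motif TGANTCA was in 8.81% of the higher, 4.35% of the lower and 5.28% of the uncalled genes. Neurl1a was the only 1 of the 11 leading rises with a window, and of the 9 leading falls with a window, that held TGACGTCA. A gene can have several windows, and these shares are descriptions of letters, without a test.

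Other muscle genes followed. Myh7, the slow myosin heavy chain of muscle and heart, lay at 805 and 930 units in the mutant and at 28.5 and 30.1 in WT, a difference of at least 31.0-fold (log2 5.29 ± 0.35, adjusted p = 2.09e-06 from limma). Car3, the carbonic anhydrase of slow muscle fibres and fat, was at 573 and 650 units against 27.4 and 34.3, at least 21.9-fold. A second, dimmer probe of Car3 rose by only 1.31 on the log2 scale (adjusted p = 0.021 from limma), at 48.1 and 103 units against 23.8 and 33.0. Ryr1 encodes the calcium release channel of the sarcoplasmic reticulum, and its probe lay at 233 and 264 units in the mutant and at 23.9 and 30.5 in WT (at least 8.66-fold). In each of these genes the lower mutant array stood above the higher WT array, which the choice of leading genes required. WT cultures also expressed Flnc and Eno3. Flnc, the filamin of the muscle Z disc, was at 1020 and 1170 units in the mutant and at 93.2 and 142 in WT (10.7-fold, adjusted p = 8e-07 from limma). Eno3, the muscle enolase, lay at 909 and 1120 units against 127 and 166. Neurl1a, a ubiquitin ligase expressed in muscle and brain, was at 1190 and 996 units in the mutant and at 41.7 and 50.5 in WT.

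Of 92 genes listed as markers of skeletal muscle 19 had a named probe and 13 could be tested, of which 12 rose, none fell and Sgcb, a sarcoglycan, did not pass (log2 0.46 ± 0.28, adjusted p = 0.355 from limma). Over all named genes 6.83% rose and 4.88% fell. The median log2 fold change of the 13 was 3.41. However, 9 of them passed the filter through the mutant arrays alone and so had to be higher, and the count is a description. Ckmt2, Musk, Neb, Smyd1, Ttn and Xirp2 had a named probe but were not above background on any of the 4 arrays. The whole list was above background for 13 genes on each mutant array and 4 on each WT array, with summed intensities of 10961 and 13558 units against 1014 and 1302. The same list gave 13 genes and 10000 to 14319 units in the mutant without 4-OHT in normoxia, but 4 genes and 1649 to 2184 units in that mutant in hypoxia. Most of the muscle genes were thus bright in 3 of the 4 mutant groups and dim in the mutant without 4-OHT in hypoxia, with Flnc (2.76 above WT there on the log2 scale), Eno3 (0.92) and Mef2c (0.67) as exceptions. Whether muscle cells in the cultures play a part was not tested, and in these bulk samples fewer cells of a type and less RNA per cell cannot be told apart.

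**Figure D2:**
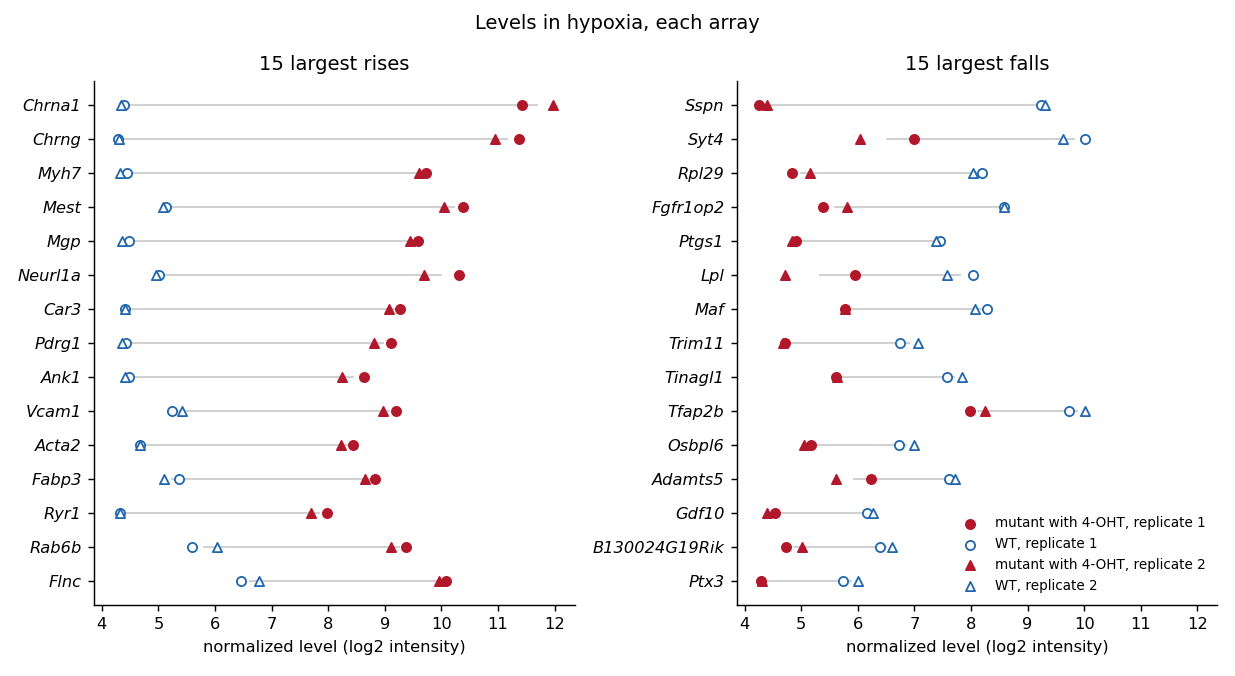
Normalized levels (log2 intensity) of the 15 largest rises and 15 largest falls on the 4 arrays, with circles for replicate 1 and triangles for replicate 2, filled for the mutant with 4-OHT and open for WT. The mutant and WT arrays do not overlap for any of the 30 genes, which the choice of genes required, and 11 of the rises lie at the background in WT.

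Among the other leading rises were matrix, adhesion and actin genes. Mgp, the matrix Gla protein that keeps cartilage and vessel walls from calcifying, lay at 731 and 839 units in the mutant and at 29.7 and 32.3 in WT (at least 28.0-fold, adjusted p = 7.39e-07 from limma). Mest, an imprinted gene of the embryonic mesoderm expressed from the paternal copy, was at 1250 units on both mutant arrays and at 44.5 and 53.6 in WT (at least 34.5-fold). Vcam1, an adhesion receptor for leukocytes and myoblasts, was at 545 and 609 units against 47.0 and 64.1. Acta2, the actin of smooth muscle and myofibroblasts, was at 321 and 377 units in the mutant and at 34.3 and 43.3 in WT (at least 12.3-fold). All 4 genes were also bright in the mutant without 4-OHT in normoxia, at 187 to 639 units. Ank1, an ankyrin that ties the membrane skeleton to the sarcoplasmic reticulum and the red cell membrane, lay at 367 and 381 units in the mutant and at 29.6 and 34.9 in WT (at least 13.2-fold). Rab6b, a small GTPase of Golgi traffic, was at 625 and 667 units against 56.4 and 90.8 (log2 3.44 ± 0.20, adjusted p = 7.39e-07 from limma).

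Of 35 fibroblast markers 15 had a named probe and 9 could be tested, of which 5 rose, none fell and 4 did not pass, with a median of 1.23. Of the 9, 3 passed the filter through the mutant arrays alone and so had to be higher. The shares over all named genes were 6.83% higher and 4.88% lower. Fbln2, an elastic fibre protein, lay at 133 and 163 units in the mutant and at 29.3 and 38.3 in WT (log2 2.52 ± 0.25). Col6a1, a chain of the collagen that surrounds muscle fibres, was at 128 and 163 units against 29.3 and 41.2. Dcn, the proteoglycan decorin, rose less, from 38.2 and 49.1 units in WT to 85.9 and 126 in the mutant. Col1a1, Col1a2 and Col3a1, the fibrillar collagens that define fibroblasts, were not above background on any of the 4 arrays. The list as a whole was above background for 9 genes on each mutant and 6 on each WT array, with sums of 1868 and 2497 units against 1346 and 1676. Its part in the other rises was not tested.

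Markers of other cell types were few. None of 11 immune markers with a named probe was above background on any of the 4 arrays, Ptprc, Cd68 and Cd3e among them. Emcn, a sialomucin of venous endothelium, rose from 32.7 and 42.0 units to 202 and 201 (at least 6.92-fold), whereas Pecam1 and Vwf, which define endothelium, were not above background, and Eng, a TGF-beta co-receptor of endothelium, fell from 203 and 291 units to 85.9 and 137 (log2 -1.29 ± 0.19, adjusted p = 0.000942 from limma). Of 5 keratinocyte markers tested, Krt17 fell from 438 and 494 units in WT to 224 and 250 in the mutant. Itgb4, the integrin of hemidesmosomes, rose and Krt8 fell. None of these keratinocyte calls held without WT replicate 1, and that of Itgb4 was also lost without WT replicate 2 or without mutant replicate 1.

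Proteins of the matrix and the cell surface changed in both directions. Over all named genes 6.83% rose and 4.88% fell. Of 12 integrins, laminins and collagens tested, 5 rose and 3 fell, and 4 of the 12 had passed the filter through the mutant arrays alone. Reading the members by role, the collagens Col6a1, Col24a1 and Col8a2, the laminin chain Lama5 and the integrin Itgb4 rose, while Col8a1, Col15a1 and the integrin Itgb5 fell. Fewer of these calls held when either WT array or mutant replicate 1 was left out, which leaves a single array in a group. The median log2 fold change of the 12 was 0.70, and 0.50 to 0.78 with 1 array left out. Of 28 guidance and adhesion molecules 5 rose and 5 fell, but fewer of the falls passed when any 1 of the arrays was left out. Of the 28, 2 had passed the filter through the mutant arrays alone and 2 through the WT arrays alone. Cdh13, a cadherin without a cytoplasmic tail, rose by 2.21 on the log2 scale, Plxna2, a semaphorin receptor, by 1.90, and Robo1, a receptor for Slit ligands, by 1.24. Slit2, a ligand of Robo1, lay at 625 and 815 units in WT and at 251 and 379 in the mutant (log2 -1.25 ± 0.21, adjusted p = 0.00219 from limma), and its other 2 probes fell by 1.35 and 1.27.

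Genes of the cytoskeleton split as well. Of 24 genes of actin and contractility 6 rose and 4 fell, beside 6.83% and 4.88% of all named genes, at a median of -0.10. Of the 24, 3 had passed the filter through the mutant arrays alone and so had to be higher. Beside Acta2 and Flnc, the largest rises were those of Cfl1, which severs actin filaments (log2 2.28), and Enah, which extends them (2.16). Pdlim1, a LIM protein of stress fibres, fell from 1050 and 1500 units in WT to 498 and 537 in the mutant, and Mylk, the kinase of the myosin light chain, from 876 and 1090 to 432 and 533, a call that was lost without either WT array. Of the TGF-beta ligands Tgfb2 rose from 39.4 and 57.5 units to 159 and 219 (log2 2.34 ± 0.19, adjusted p = 1.23e-05 from limma), and Tgfb3 rose by 1.91. The receptor Tgfbr1 lay at 0.11 and the target Ccn1 at 0.03, and neither passed the test. Of the 8 tested genes on the list that holds them, 3 rose and none fell, the third being Ltbp2 (1.53). Of these 8, 2 had passed the filter through the mutant arrays alone.

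**Figure D3:**
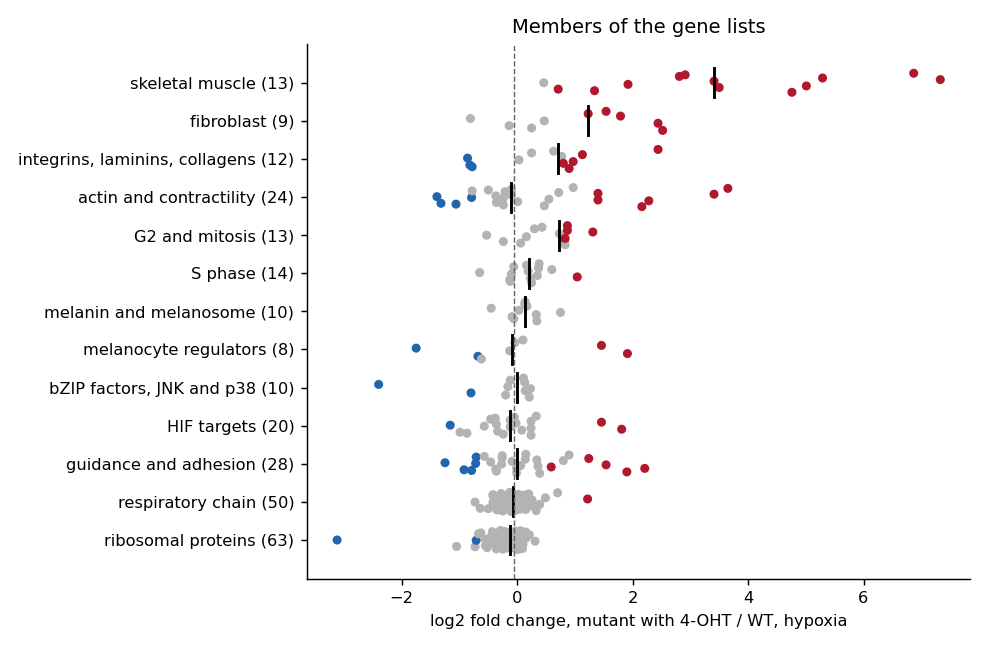
Log2 fold changes between the mutant with 4-OHT and WT in hypoxia for the tested members of 13 gene lists (number of members in brackets), red where higher and blue where lower at an adjusted p under 0.05, grey otherwise. The black bars mark each list's median and the dashed line the median of all genes, -0.06; skeletal muscle lies highest at 3.41 and ribosomal proteins sit close to the line.

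The falls were smaller and of mixed function. Sspn, sarcospan of the dystrophin complex, lay at 566 and 758 units on the WT arrays and at 21.9 and 37.0 on the mutant arrays, at least 18.3-fold lower in the mutant (log2 -4.95 ± 0.16, adjusted p = 9.19e-09 from limma). Syt4, a calcium sensor of vesicle release, lay at 971 and 934 units in WT and at 122 and 100 in the mutant (9.9-fold), while its second probe did not pass (log2 -0.36, adjusted p = 0.389 from limma). Rpl29, a protein of the large ribosomal subunit, fell from 281 and 322 units to 40.4 and 62.7 (at least 7.02-fold). Of 63 genes named as ribosomal proteins, which include the kinase Rps6ka2, only Rpl29 and Rpl13a (log2 -0.71) fell and none rose. The shares over all named genes were 4.88% and 6.83%. The median of the 63 was -0.13. Rpl13a passed without mutant replicate 2 but not without any of the other 3 arrays. Ribosomal protein genes have many near-identical copies in the genome, so which copies a probe reads is uncertain.

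Enzymes and secreted proteins were among the falls. Lpl, lipoprotein lipase, lay at 256 and 241 units in WT and at 66.4 and 49.0 in the mutant (5.54-fold, adjusted p = 0.0012 from limma). Ptgs1, the constitutive cyclooxygenase, fell from 177 and 212 units to 41.8 and 52.7, below background in the mutant. Adamts5, an aggrecan-cleaving protease, fell from 193 and 266 units to 77.9 and 80.4. Tinagl1, a matricellular protein, fell from 190 and 287 units to 57.1 and 81.4. The remaining leading falls, Trim11, Fgfr1op2, Osbpl6, Gdf10, B130024G19Rik and Ptx3, had fitted log2 fold changes from -2.99 (Fgfr1op2) to -1.58 (Ptx3). Second probes of Fgfr1op2 and Osbpl6 did not pass, at -0.10 and 0.25.

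Several transcription factors changed. Maf, a leucine zipper factor of the family that includes ATF2, lay at 300 and 331 units in WT and at 61.2 and 87.7 in the mutant (log2 -2.40 ± 0.16, adjusted p = 2.29e-06 from limma). Tfap2b and Tfap2a, AP-2 factors of the neural crest from which melanocytes arise, were both lower. Tfap2b lay at 795 and 1230 units in WT and at 236 and 385 in the mutant, and both of its probes fell (-1.75 and -1.62). Tfap2a was at 1420 and 1760 units against 910 and 1110, and no longer passed when any 1 of the 4 arrays was left out. In the other direction Sox11, a factor of neural crest and embryonic mesenchyme, rose from 62.6 and 77.7 units to 225 and 226. Over all named genes 4.88% fell and 6.83% rose. Of 10 leucine zipper factors and kinases of the JNK and p38 pathway, only Maf and Cebpb fell and none rose, and Cebpb passed without mutant replicate 1 only. Junb lay at 120 and 151 units in the mutant and at 124 and 191 in WT (adjusted p = 0.593 from limma).

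Genes of the cell cycle gave a weaker pattern. Over all named genes 6.83% rose and 4.88% fell. Of 13 genes of G2 and mitosis 5 rose and none fell, with a median of 0.73. Plk1, a kinase that drives entry into mitosis, lay at 211 and 242 units in the mutant and at 114 and 152 in WT (log2 0.87 ± 0.20, adjusted p = 0.0156 from limma). Cdc20, the activator of the anaphase promoting complex, was at 182 and 159 units against 63.9 and 90.9. Fewer of the 13 passed when either WT array or mutant replicate 1 was left out, which leaves a single array in a group. Their median was 0.37 to 0.78 with 1 array left out, so the count is unsure. Of 14 genes of S phase, only Rrm2, a subunit of ribonucleotide reductase, rose, and it passed without mutant replicate 2 but not without any of the other 3 arrays. Cdkn1a, the p21 inhibitor of the cell cycle, rose from 606 and 899 units in WT to 2140 and 2710 in the mutant (log2 1.70 ± 0.16, adjusted p = 3.25e-05 from limma), and its second probe rose by 1.61.

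Cyclin D1, the product of Ccnd1, was measured by 3 probes. The brightest lay at 1750 and 1860 units in the mutant and at 2190 and 3080 in WT and did not pass (log2 -0.58 ± 0.19, adjusted p = 0.0755 from limma). The other 2 were lower in the mutant, by -1.20 (adjusted p = 0.000434) and -1.18 (adjusted p = 0.00134, both from limma). All 3 probes point downward, and the call depends on the probe chosen. Of 15 genes singled out for their part in the study, 7 had a named probe here and 4 could be tested, namely Ccnd1, Dct, Junb and Nras.

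Both groups were in hypoxia, and of 20 targets of the HIF factors tested 2 rose and 1 fell, beside 6.83% and 4.88% of all named genes, with a median of -0.12. Egln3, the oxygen sensor PHD3, lay at 277 and 367 units in the mutant and at 82.5 and 122 in WT (log2 1.81 ± 0.18, adjusted p = 4.41e-05 from limma). Angptl4, a lipase inhibitor, was at 198 and 191 units against 72.4 and 86.7. Trf, transferrin, fell from 327 and 462 units in WT to 165 and 193. The glycolytic enzymes among these 20 gave values between -0.87 (Pgam1) and 0.33 (Pfkfb4), none of which passed. The muscle enolase Eno3, which is not among them, rose by 2.91. Of 50 genes of the respiratory chain 1 rose (Cox7a2l) and none fell, and of 33 mitochondrial ribosomal proteins none passed.

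The leading genes fall into different patterns when the remaining groups are set beside them. The other contrasts in hypoxia share arrays with this one, so their values are given side by side only. For Chrna1 the mutant without 4-OHT in hypoxia lay at 26.3 and 29.4 units, as WT did, and the mutant without 4-OHT in normoxia at 2310 and 3560. Over the 15 largest rises, the median log2 difference from WT was 4.58 for the mutant with 4-OHT in hypoxia and 0.02 for the mutant without it in hypoxia. Pdrg1, a gene regulated by p53 and DNA damage, behaved otherwise. Its probe was at 516 and 554 units in the mutant with 4-OHT in hypoxia and at 465 and 554 without 4-OHT, against 28.0 and 32.1 in WT, and it was bright in all 4 mutant groups. In these arrays Pdrg1 thus went with the genotype at both oxygen levels, with or without the drug. The sex of the pups split the arrays in the same way, so the 2 cannot be told apart here.

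Sspn gave the same picture in reverse, at 21.9 to 37.0 units on all 8 mutant arrays and at 308 to 758 on all 4 WT arrays. Fgfr1op2 lies on chromosome 6 as Sspn does, with 2 protein-coding genes between them in RefSeq, and was lower in all mutant groups as well, by 2.82 on the log2 scale in the mutant without 4-OHT in hypoxia. Of the 9 tested genes among the 25 protein-coding genes on either side of Sspn and Sspn itself, only this pair was called. Over all named genes 4.88% were lower and 6.83% higher. The region was chosen for the fall of Sspn, so the call of Sspn was given beforehand. The second probe of Fgfr1op2 did not pass (log2 -0.10). By contrast Syt4 was at 3430 and 3810 units in the mutant without 4-OHT in hypoxia, above WT, and at 100 to 125 on the 4 arrays with 4-OHT. Over the 15 largest falls, the median difference from WT was -2.21 with 4-OHT and -1.58 without it.

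**Figure D4:**
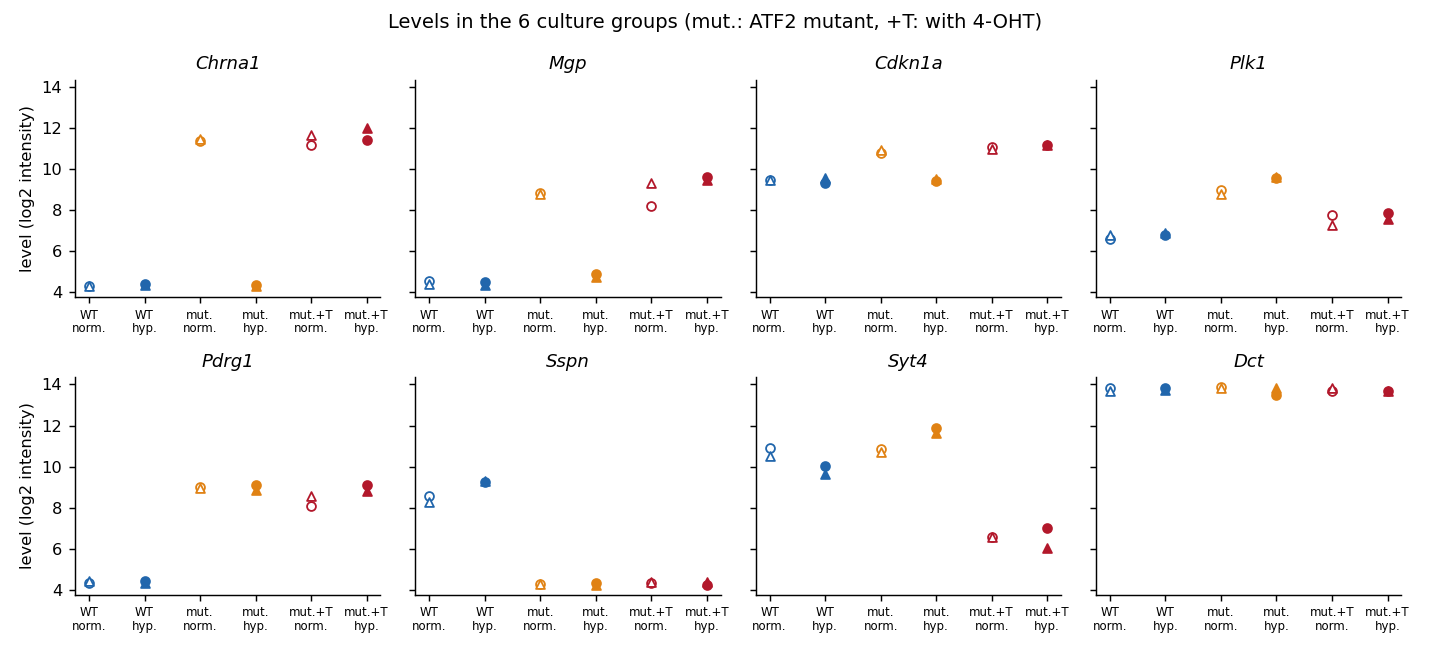
Normalized levels (log2 intensity) of 8 genes in the 6 culture groups, 2 arrays each (circle, replicate 1; triangle, replicate 2), filled in hypoxia and open in normoxia. Chrna1 and Mgp are high in 3 of the mutant groups and low in the mutant without 4-OHT in hypoxia, Pdrg1 and Sspn separate all mutant from all WT arrays, and Dct is level.

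Chrna1 is also a neighbour of Atf2 on chromosome 2, with 1 protein-coding gene between them, and the following look at that region was chosen after the values had been seen. Among the 25 protein-coding genes on either side of Atf2 15 could be tested, of which 4 rose, 3 fell and 8 did not pass, beside 6.83% higher and 4.88% lower over all named genes. The risen genes were Chrna1, Metap1d, a mitochondrial aminopeptidase (log2 1.57), and the homeobox genes Hoxd8 (1.80) and Hoxd4 (1.89). Chrna1, Hoxd8 and Hoxd4 had passed the filter through the mutant arrays alone and so had to be higher, and the count is a description. In the mutant without 4-OHT in hypoxia these genes lay at the WT level (log2 -0.04, 0.01 and -0.02), while Metap1d lay at 2.70. The genes that fell were Cdca7 (-0.86), Ola1 (-0.73) and Osbpl6 (-1.75), and the median of the 15 was 0.02. Hox genes specify position along the body axis. Of 16 with a named probe 4 were tested. Hoxa7, on chromosome 6, rose too, from 29.4 and 40.8 units in WT to 131 and 155 in the mutant (log2 2.42 ± 0.29), whereas Hoxb2 lay at -0.18. Hoxa7 had also passed the filter through the mutant arrays alone.

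The same contrast in normoxia uses 4 other arrays. Of the 432 genes called in hypoxia, 266 were called in the same direction in normoxia (61.6% of the hypoxia calls and 35.4% of the 751 normoxia calls) and 5 in the opposite direction. Among all genes tested 63.9% had the same sign at both oxygen levels. All 15 leading rises and 12 of the 15 leading falls were called in normoxia too. Skeletal muscle markers had a median of 3.35 there, against 3.41 in hypoxia. The exceptions among the falls were Adamts5, Gdf10 and Ptx3, whose WT level was higher in hypoxia: Gdf10 lay at 78.3 and 103 units in WT in hypoxia and at 42.1 and 46.0 in normoxia.

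The difference between the effects in hypoxia and normoxia was tested directly and passed for 54 probes (0.394% of those tested), 28 with a higher and 26 with a lower value in hypoxia, of which 19 belong to 18 named genes. With the slide as a block the counts were 41 and 41. Prl2c2, a placental growth factor of the prolactin family, was at 1870 and 1830 units in WT in hypoxia and at 160 and 162 in WT in normoxia, while the mutant with 4-OHT lay at 1260 and 1120 in hypoxia and 510 and 758 in normoxia. Its difference between the effects was -2.64 ± 0.36 (adjusted p = 0.0229 from limma). Serpina3n, a secreted protease inhibitor, behaved alike, with WT at 1870 and 2540 units in hypoxia and at 433 and 620 in normoxia and the mutant at 1640 to 2710 in both. For both genes the WT arrays at the 2 oxygen levels do not overlap, but the genes were chosen for a difference that includes these arrays. The share of all probes without such overlap was not counted.

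In the other direction, Fabp3, the fatty acid binding protein of heart and muscle, was at 50.2 and 54.3 units in WT in hypoxia and at 187 and 211 in WT in normoxia, but at 346 to 518 on the 4 mutant arrays (difference 2.44 ± 0.35, adjusted p = 0.023 from limma). Slc24a4, a sodium, potassium and calcium exchanger linked to pigmentation in humans, was at 131 and 155 units in WT in hypoxia and at 363 to 483 on the 4 mutant arrays, with 380 and 479 in WT in normoxia. Cd82, a tetraspanin, gave 1.66 and Sox4, a factor of progenitor cells, 1.62. For Sox4 the levels in hypoxia overlapped, at 840 and 1180 units against 839 and 1240, and in normoxia WT lay at 2210 and 3270 and the mutant at 706 and 1200. These calls were unstable. They were lost when either WT array at either oxygen level was left out, whereas far more probes passed without replicate 2 of the mutant with 4-OHT in normoxia. Such fits leave a single array in a group, so they cannot tell a loss of precision from the weight of 1 array.

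**Figure D5:**
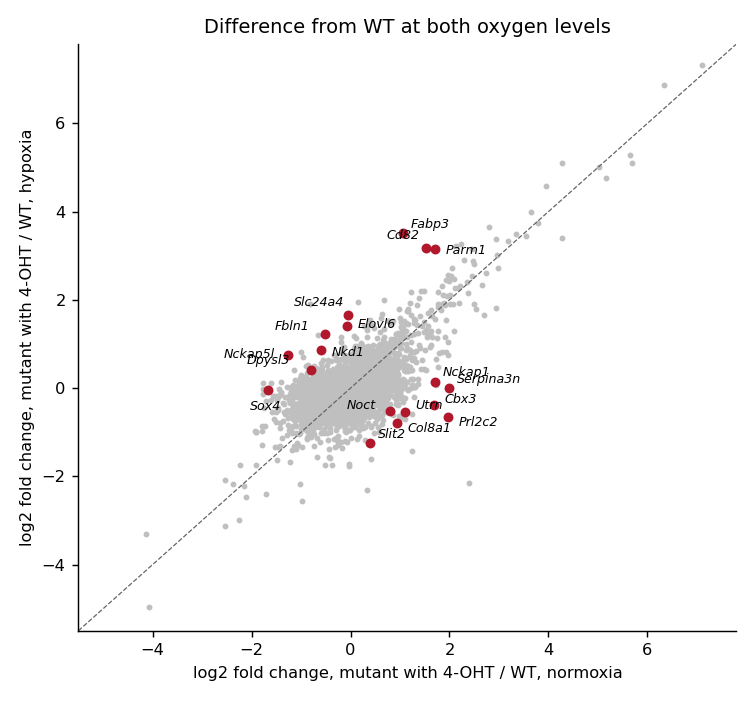
Log2 fold change between the mutant with 4-OHT and WT in normoxia (horizontal axis) and in hypoxia (vertical axis) for the 3692 named genes, with the 18 genes whose difference between the oxygen levels passed the test in red. The leading rises and falls lie near the dashed line of equal values, Fabp3 lies above it at 3.51 in hypoxia and 1.07 in normoxia, and Prl2c2 lies below it.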

How the data were processed

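Expression in primary mouse melanocytes was read from 12 BeadChip arrays in 6 groups of 2, of which 4 arrays were compared here. The authors read 1 mean bead intensity per probe in BeadStudio and deposited it as a non-normalized intensity on a linear scale. The deposited detection p-values set each probe against the negative control beads. A further deposited set holds intensities that the authors background-subtracted and normalized by cubic spline, used only as an alternative with values under 16 set to 16.

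Background was removed by normexp (limma 3.58.1, R 4.3.3) with its level inferred from the detection p-values; an offset of 16, quantile normalization and log2 followed. The smallest regular step of a detection p is 1 in 1603, and 5 bright probes with a p between 0 and that step did not enter the background estimate. One limma fit to the 12 arrays with 1 mean per group left 6 residual degrees of freedom, and p-values were adjusted by Benjamini-Hochberg over all 13701 probes. Values in the text are deposited intensities in arbitrary units. The log2 fold changes, and the folds derived from them, are from the fit. Errors are standard errors. The offset compresses folds of dim genes. The number of arrays limits the precision.

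A number in a probe's identifier was taken to be an Entrez number and looked up in RefSeq (GRCm38.p6). Of 11857 such numbers 82.6% were in the table, against 46.0% after adding 1 to each. The labels number the arrays by slide, so the numbers pair them. Deviations of same-numbered arrays correlated at -0.231 between mutant and WT in hypoxia, and at over 0.1 in 12 of 15 pairs of groups.

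The comparison, its members and the 37 gene lists were chosen with earlier results of these data known. The genes named are the 15 largest rises and 15 largest falls among called genes whose groups do not overlap, up to 8 in each direction for the difference between oxygen levels, genes of the study, and list members as examples. The steps were tested on simulated data. Alternatives were other backgrounds, offsets, scalings and filters, the authors' values, a slide block, fitting the compared arrays alone, a trend, array weights, a stricter p, the mean over a gene's probes, and leaving out each array. Tables and figures were made with Python, pandas and matplotlib.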

Additional observations from a re-analysis of the deposited data

Results flagged for a closer look

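The difference between the mutant effect in hypoxia and in normoxia passed its test for 28 probes with a higher and 26 with a lower value in hypoxia, and named genes among them, up to 8 in each direction by size out of 10 higher and 8 lower, are given here by that difference on the log2 scale. Higher in hypoxia were Fabp3 (2.44), Nckap5l (2.02), Fbln1 (1.75), Slc24a4 (1.71), Cd82 (1.66), Sox4 (1.62), Elovl6 (1.47) and Parm1 (1.46). Lower in hypoxia were Prl2c2 (-2.64), Cbx3 (-2.06), Serpina3n (-2.0), Col8a1 (-1.72), Slit2 (-1.65), Utrn (-1.65), Nckap1 (-1.56) and Noct (-1.31). Elovl6 elongates fatty acids, and lay at 178 and 197 units in WT in hypoxia and at 450 and 495 in the mutant with 4-OHT. Col8a1 was at 137 and 234 units in WT and at 86.0 and 142 in the mutant in hypoxia, but at 59.1 and 74.9 in WT and 120 and 127 in the mutant in normoxia.

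Outside the probes compared, the brighter Xist probe was above background on 8 arrays, all of them mutant, and on 0 WT arrays.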

How the results depend on the processing

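No called value of a named gene changed direction. Over 157 genes and their alternatives, 2517 values kept their side of the threshold, 283 fell short of it and 21 passed it newly. Values that passed in neither fit could change sign and still count among the 2517. Against 991 higher and 864 lower probes in hypoxia, a background estimate from all probes gave 616 higher and 652 lower, median scaling 574 and 204, a fit to only the arrays compared 512 lower, and an unadjusted p under 1e-06 207 and 35. The share of higher among called probes was 53.4%, and 73.8% with median scaling, 85.5% at that stricter p and 60.8% with only the arrays compared, 48.6% with the background from all probes and 49.9% without the filter on detection. With the replicate block, which pairs arrays by slide, 1112 were higher and 1101 lower, and with the pairing crossed 1133 and 1055. Leaving out 1 array at a time gave 585 to 884 higher and 309 to 844 lower.

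The difference between oxygen levels (28 higher, 26 lower, with 2005 probes at an unadjusted p under 0.05) gave 78 and 76 with the background from all probes, 51 lower with the authors' values, 51 and 56 without the filter on detection, and 41 lower with the replicate block. It gave 0 in both directions with median scaling, with only the arrays compared, with array weights and at the stricter p. Leaving out 1 array gave 0 to 873 higher and 0 to 581 lower. The cause of these changes was not tested. Genes at the background have only a bound on their fold, and 2 arrays a group limit what can be detected.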
